A study of Homo sapiens with 13 samples.

Results

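The kinetochore, centromere and spindle checkpoint genes described here are 43 genes listed by name. The rule uses no measured value, though earlier results of these data were known when the list was made. Genes of the SKA complex were left out by the same rule, and SKA2 is itself a target of the experiments. All 43 were found by current or older symbol in each of the 3 count tables, which hold 59653, 17976 and 39735 genes. All 43 also had enough reads to be measured in every comparison.

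The kinetochore is the protein assembly that attaches a chromosome to the spindle. Its base is a centromeric nucleosome that carries the histone variant CENPA, on which the constitutive centromere-associated network sits throughout the cell cycle. In mitosis this network recruits the KMN network (KNL1, the MIS12 complex and the NDC80 complex), which grips microtubules, and an outer corona of motors and adaptors. Unattached kinetochores produce the spindle checkpoint signal that holds back anaphase, and the chromosomal passenger complex removes faulty attachments. Many of these genes are transcribed mainly in dividing cells, with a peak in G2 and mitosis, so their messages also follow how many cells of a culture are cycling.

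RNA was sequenced from 13 libraries of A549, a human non-small cell lung cancer line of epithelial origin, to ask how the transcription unit of PRR11, SKA2, miR-301a and miR-454 acts in lung cancer cells. PRR11 encodes a protein with proline-rich stretches that is made in dividing cells, and SKA2 encodes a subunit of a complex that couples kinetochores to microtubules. In the first set, a stable line with CRISPR interference at the bidirectional promoter of both genes (CRISPRi_PRR11+SKA2 promoter-sgRNA#1, called the CRISPRi library) was set against a line with a mock guide (CRISPRi_Mock sgRNA). In the second set, stable lines made with the Lenti-pCDH-CMV system to overexpress PRR11 (LV-PRR11), SKA2 (LV-SKA2) or both (LV-P+S) were set against LV-vector-PS. In the third set, lines made with the same vector system to overexpress miR-301a (LV-miR301a), miR-454 (LV-miR454) or both (LV-3+4) were set against LV-vector-34. In the fourth set, lines made by CRISPRd to knock out the precursor of miR-301a (CRISPRd_miR301a-#2) or of miR-454 (CRISPRd_miR454-#1) were set against CRISPRd_Control. The names carry 1 guide or line number each, and no source used here says whether a line was grown from a single cell. With 1 library in every group, nothing checks a ratio below against replicates: it describes a pair of libraries.

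Library totals ran from 18672570 to 21717807 counts, at which 3 counts equal 0.136 to 0.165 CPM (counts scaled to the size of the library). The targeted genes were used to check the labels. PRR11 had 14 counts in the CRISPRi library, against 2029 in the mock library, and SKA2 had 5 counts, against 1594. Among the lentiviral lines, LV-PRR11 had 109% and LV-P+S had 110% of the PRR11 level of their vector. The library labelled LV-SKA2, without the PRR11 label, had 103%, so these small differences do not check the PRR11 labels. The library labelled LV-SKA2 had 84.4% of the SKA2 level of the vector and the one labelled LV-P+S had 88.7%, which goes against both labels. MIR454, the locus of miR-454, had 468 counts in LV-miR454. Counts of 28 under the label LV-miR301a and of 0 under the label LV-3+4 also go against the labels. For MIR301A the library labelled LV-miR301a held 29 counts and that labelled LV-3+4 held 34. Both loci had 0 counts in all 3 CRISPRd libraries, so these counts do not check the knockouts.

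Repression of the PRR11 and SKA2 promoter was accompanied by low messages across nearly the whole kinetochore. Together the 43 genes had 977 CPM in the CRISPRi library, against 2386 CPM in the mock library, or 41.0% of the mock level. A gene was called lower or higher when its log2 ratio, taken on CPM plus 0.5, was at least 1 in size and the exact 95% counting interval of the ratio excluded equality. By this rule 33 of the 43 genes were lower, where 5.97% of all 15003 measured genes were, and 1 gene was higher, where 9.43% were. Their median log2 ratio was -1.49, beside -0.04 over all measured genes. A share of 38.7% of all measured genes had an interval wholly below equality, as did 41 of the 43. The depth of the difference varied: 13 genes had under 30% of the mock level, 12 had 30 to 40%, 8 had 40 to 50%, 8 had 50 to 100% and 2 were above it. For 37 of the 43 genes the CRISPRi library was the lowest of all 13 libraries, though levels in different tables were scaled separately. The mock library was in turn the highest of all 13 for 14 of the 43 genes, so the mock level enters those ratios. MAD2L1, for example, had 22.1 CPM in the CRISPRi library and 72.1 CPM in the mock library, where the other controls had 36.4 to 41.3 CPM. In bulk RNA, fewer cells in mitosis and less message per cell cannot be told apart.

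**Figure D1:**
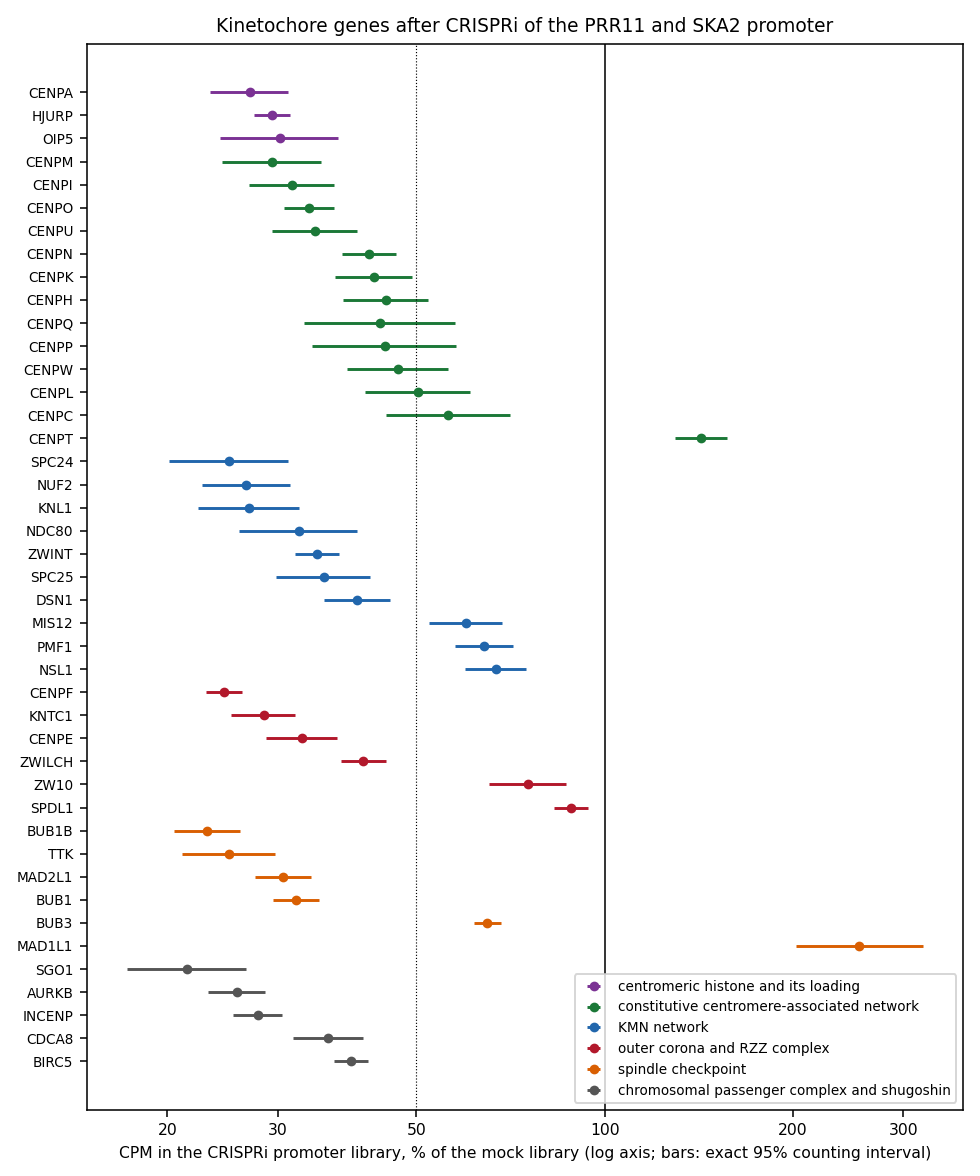
Level of each of the 43 genes in the CRISPRi library as a percentage of the mock library (horizontal log axis), with bars for the exact 95% counting interval and colours for the role; each group is 1 library. SGO1 lies farthest left at 21.5%, and MAD1L1 (255%) and CENPT (142%) are the 2 genes right of the line at 100%.

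Because the members were low together in the CRISPRi library, their promoters were searched for the letters of elements known from cell cycle genes. RefSeq gives 300 bases around the first listed start (250 before to 50 after) for 35 of the 43 genes on GRCh38.p14. The cell cycle homology region, through which the DREAM and MYB-MuvB complexes are known to act on late cell cycle genes, was searched as TTTGAA. It was found on either strand in 16 of 35 promoters (45.7%), where 15.4% of 27305 promoters of that length hold it. CCAAT, bound by NF-Y, was found in 24 (68.6%), where 35.7% of all hold it. Both occurred in 12 (34.3%), where 6.08% of all hold both. An E2F core, searched as GCGGGAA, was found in 7 of the 35, where 6.56% of all hold it. A match describes the letters of these windows and does not show that a factor binds there. Other forms of each element were not searched, so a window without these letters may still hold one. Only the first listed start of a gene was used. The windows of CENPI, AURKB and CENPA, among others, lie wholly inside the gene as GENCODE places it. Whether such a window holds the promoter in use was not tested.

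The following promoters are examples with TTTGAA from 4 genes called lower in the CRISPRi library, all but BUB1B also with CCAAT. The promoter of the 1 gene called higher is shown beside them. They are written on the strand of the gene, with TTTGAA and CCAAT in capitals on either strand, so that a CCAAT on the other strand reads ATTGG. BUB1B (chr15:40160819-40161118, plus strand) has 1 TTTGAA at position -23 relative to the start and no CCAAT. CENPA (chr2:26785806-26786105, plus strand) has TTTGAA at -18 and 2 CCAAT words farther upstream. INCENP (chr11:62123761-62124060, plus strand) has TTTGAA at -10 and 3 CCAAT words. CDCA8 (chr1:37692266-37692565, plus strand) has TTTGAA at -23 and 3 CCAAT words, the last of which shares a base with it. MAD1L1 (chr7:2232896-2233195, minus strand) has neither word. The same is true of the windows of CENPI, CENPE, DSN1 and CENPP, which were called lower, and SGO1, the lowest gene, has no TTTGAA. The CENPI window begins at chrX:101100808, inside a gene that starts at 101098218, so it may not be the promoter of CENPI. Of the 27 promoters of genes called lower, 9 hold both words (33.3%).
BUB1B: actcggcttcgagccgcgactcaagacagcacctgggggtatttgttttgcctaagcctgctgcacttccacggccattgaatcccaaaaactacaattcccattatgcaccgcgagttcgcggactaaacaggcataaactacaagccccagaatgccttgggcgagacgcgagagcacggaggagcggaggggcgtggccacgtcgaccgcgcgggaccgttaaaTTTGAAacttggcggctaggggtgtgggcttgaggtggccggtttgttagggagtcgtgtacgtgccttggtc
CENPA: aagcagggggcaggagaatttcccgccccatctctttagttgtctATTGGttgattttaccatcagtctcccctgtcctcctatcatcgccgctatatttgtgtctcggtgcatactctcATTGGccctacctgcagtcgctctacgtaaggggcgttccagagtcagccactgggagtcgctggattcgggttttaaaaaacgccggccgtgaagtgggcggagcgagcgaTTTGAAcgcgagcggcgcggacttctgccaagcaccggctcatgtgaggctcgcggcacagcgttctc
INCENP: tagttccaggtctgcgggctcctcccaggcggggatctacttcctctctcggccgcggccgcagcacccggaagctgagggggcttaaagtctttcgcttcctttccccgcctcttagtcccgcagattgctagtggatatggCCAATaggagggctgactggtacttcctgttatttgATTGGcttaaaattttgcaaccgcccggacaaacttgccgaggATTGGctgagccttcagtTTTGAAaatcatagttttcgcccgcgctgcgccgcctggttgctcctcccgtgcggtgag
CDCA8: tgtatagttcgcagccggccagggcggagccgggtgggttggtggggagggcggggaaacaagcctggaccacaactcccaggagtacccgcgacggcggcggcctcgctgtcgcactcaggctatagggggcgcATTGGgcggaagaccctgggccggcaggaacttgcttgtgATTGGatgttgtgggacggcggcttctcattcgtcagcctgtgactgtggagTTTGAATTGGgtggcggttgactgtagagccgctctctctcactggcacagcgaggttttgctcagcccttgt
MAD1L1: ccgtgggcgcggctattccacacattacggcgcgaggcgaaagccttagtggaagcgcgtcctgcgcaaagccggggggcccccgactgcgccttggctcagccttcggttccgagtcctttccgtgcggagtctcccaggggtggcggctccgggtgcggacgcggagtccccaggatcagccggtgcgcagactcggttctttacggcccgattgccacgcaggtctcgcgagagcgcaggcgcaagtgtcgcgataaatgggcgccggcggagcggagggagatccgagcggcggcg

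Within the members, neither TTTGAA nor CCAAT marked off the low genes, though only 8 of the promoters belong to genes not called lower. Among members called lower in the CRISPRi library, 13 of 27 promoters held TTTGAA (48.1%), as did 3 of the 8 others (37.5%). The median log2 ratio was -1.54 in the 16 genes with the word and -1.27 in the 19 without it. For CCAAT the medians were -1.47 in 24 genes with it and -1.54 in 11 without it. The E2F core was in 4 of the 27 promoters of genes called lower (14.8%) and in 3 of the 8 others (37.5%). Its medians were -1.23 in 7 genes with it and -1.52 in 28 without it. These are descriptions with no test.

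The centromeric histone and the proteins that load it were low together, at 29.1% of the mock level in sum. CENPA, the histone variant that marks the centromere, had 11.4 CPM in the CRISPRi library, against 42.2 CPM in the mock library. This was 27.1% of the mock level (95% counting interval 23.4 to 31.2%), and the 4 control libraries of the series spanned only 39.6 to 44.8 CPM. HJURP, the chaperone that deposits CENPA, had 54.4 CPM, against 185 CPM (29.4%). OIP5, a subunit of the complex that primes centromeres for loading, had 5.12 CPM, against 16.9 CPM (30.2%). All 3 passed the rule, with a median log2 ratio of -1.76.

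In the constitutive centromere-associated network, 10 of 13 genes were called lower and the median log2 ratio was -1.13. Of the subunits that form its central scaffold, CENPM stood at 29.4% of the mock level and CENPI at 31.6%, while CENPK stood at 42.8% and CENPH at 44.7%. In the subcomplex that holds a docking site for the kinase PLK1, CENPO stood at 33.7% and CENPU at 34.4%, with CENPQ at 43.8% and CENPP at 44.5%. In the first subcomplex the counting intervals of CENPM (24.5 to 35.2%) and CENPH (38.2 to 52.3%) did not overlap. In the second, those of CENPQ (33.1 to 57.6%) and CENPP (34.1 to 57.8%) overlapped those of CENPO (30.7 to 37.0%) and CENPU (29.4 to 40.1%), so no difference in depth was detectable there. CENPN and CENPL form a pair that reads the centromeric nucleosome, and they stood at 42.0% and 50.3%. CENPL missed the rule narrowly, at a log2 ratio of -0.95. Its 15.1 CPM in the mock library was its highest level of the series. At 7.62 CPM the CRISPRi library lay within the 6.91 to 8.16 CPM of the other controls, which were scaled separately. CENPW, at 46.7% and -1.05, was the called gene nearest to the limit.

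Outside this group stood the network's main bridges to the outer kinetochore. CENPC, which binds the centromeric nucleosome and the MIS12 complex, had 5.67 CPM in the CRISPRi library and 10.1 CPM in the mock library (56.3%, 44.7 to 70.6%), and was not called. CENPT, which brings in the NDC80 complex, had 49.7 CPM in the CRISPRi library and 34.9 CPM in the mock library. At 142% (129 to 157%) it lay above the mock without reaching the limit, and the CRISPRi library was the highest of all 13. Its partner in a histone-fold pair, CENPW, lay below. CENPT shares exonic bases with NUTF2, THAP11 and TSNAXIP1 on the opposite strand in GENCODE release 29, and without a stated strand setting their reads cannot be told apart.

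In the KMN network 7 of 10 genes were called lower, with a median log2 ratio of -1.48. All 4 genes of the NDC80 complex, the main microtubule grip, were called. SPC24 had 4.94 CPM in the CRISPRi library, against 19.7 CPM in the mock library (25.1%), and NUF2 had 8.93 CPM, against 33.4 CPM (26.8%). NDC80 stood at 32.5% and SPC25 at 35.5% of the mock level. KNL1, the scaffold that collects the BUB proteins, stood at 27.0%, and ZWINT, which links KNL1 to the corona, at 34.7%. In the MIS12 complex, which joins these parts to the inner kinetochore, DSN1 (40.2%, 35.6 to 45.3%) was called and overlapped SPC25, and 3 of the 4 genes were not called. MIS12 stood at 59.9% (52.3 to 68.6%), PMF1 at 64.1% (57.6 to 71.3%) and NSL1 at 67.0% (59.9 to 74.9%). The intervals of these 3 lay above those of all 4 NDC80 complex genes, whose highest bound was 42.2%.

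In the corona and the RZZ complex, 4 of 6 genes were called lower and the median log2 ratio was -1.42. CENPF, a large coiled-coil protein of the corona, had 50.5 CPM in the CRISPRi library, against 205 CPM in the mock library (24.7%, 23.1 to 26.4%). CENPE, the kinesin that carries chromosomes toward the spindle equator, stood at 32.8%. The 3 RZZ subunits were low to different degrees, with KNTC1 at 28.5%, ZWILCH at 41.1% and ZW10 at 75.3% (65.4 to 86.6%). SPDL1, the adaptor that recruits dynein to RZZ, had 86.7 CPM, against 98.2 CPM (88.3%, 82.9 to 94.0%). ZW10 and SPDL1 were the 2 genes of this group that were not called, and ZW10 also works in membrane traffic outside mitosis.

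Checkpoint genes were called lower in 4 of 6 cases, with a median log2 ratio of -1.65. BUB1B, the checkpoint protein that restrains the anaphase-promoting complex, had 15.4 CPM in the CRISPRi library, against 66.6 CPM in the mock library (23.2%, 20.5 to 26.1%). TTK, the kinase that starts the signal, had 7.89 CPM, against 31.4 CPM (25.1%). MAD2L1, the messenger of the signal, stood at 30.6% and the kinase BUB1 at 32.1%. BUB3, which docks BUB1 and BUB1B onto KNL1, was not called at 64.9% (61.7 to 68.2%).

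MAD1L1, the platform on which MAD2L1 is converted, was the single gene called higher, with 12.5 CPM in the CRISPRi library and 4.92 CPM in the mock library (255%, 202 to 323%). The mock library, however, was the lowest of all 13 for MAD1L1. The other 3 controls had 24.4 to 29.2 CPM, so the CRISPRi library was below them as well, and the 4 controls spanned a 5.94-fold range. No other member spanned more than 2.19-fold among the controls, the value of CENPL. The call of MAD1L1 therefore rests on the mock library alone, and levels in different tables were scaled separately.

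All 5 genes of the chromosomal passenger complex and SGO1 were called lower, with the lowest median of the 6 roles (-1.82). SGO1, which protects cohesion at centromeres, had 4.72 CPM in the CRISPRi library, against 21.9 CPM in the mock library. At 21.5% (17.2 to 26.7%) it was the lowest of the 43 genes. AURKB, the kinase of the complex, had 20.2 CPM, against 78.2 CPM (25.8%), and INCENP, its scaffold and activator, had 28.1 CPM, against 101 CPM (27.9%). CDCA8 and BIRC5, which target the complex to centromeres, stood at 36.2% and 39.3%. The kinase and its activator thus lay below the targeting subunits, with intervals that did not overlap.

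Genes around the kinetochore were also low. Of 21 further kinetochore and checkpoint genes, 14 were called lower and 0 higher (median -1.19). The lowest log2 ratios among them were those of ERCC6L, a helicase of stretched centromeric DNA (19.9% of the mock level), SPAG5, a spindle protein (24.7%), PLK1, a mitotic kinase (26.2%), and HASPIN, the histone kinase that guides the passenger complex (25.1%). The anaphase-promoting complex, which the checkpoint restrains, had 3 of 17 genes called lower and a median of -0.25. Those 3 were its ubiquitin-conjugating enzymes UBE2C (-1.85) and UBE2S (-1.28) and the subunit ANAPC1 (-1.07). Of 15 regulators of mitotic transcription, 6 were lower and 1 higher (median -0.94), with E2F8 at -2.68, MYBL2 at -2.12, E2F1 at -2.03 and the cell cycle inhibitor CDKN1A at 1.80.

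Markers of cycling cells moved with these genes. Of 10 such markers, 9 were called lower (median -1.91), and in sum they had 729 CPM in the CRISPRi library, against 2361 CPM in the mock library (30.9%). MKI67, the proliferation antigen, was at -2.37, MCM2, a replication helicase subunit, at -2.09, CDK1, the mitotic kinase, at -2.06 and TOP2A, a topoisomerase, at -2.02. The share of cycling cells was not measured, and its part in the kinetochore result was not tested. Markers of other cells differed too. The epithelial marker list had 1 of 6 lower (EPCAM, -1.53) in the CRISPRi library, and the 2 measured fibroblast genes of 5 were higher, LUM at 1.62 and COL1A1 at 1.46. All 5 fibroblast genes together had 29.7 CPM, against 10.1 CPM in the mock library. The defining fibroblast genes DCN, PDGFRB and COL1A2 stood at 0.146 CPM or less in both libraries. Of 4 immune markers 2 were measured, with CD68 called higher at 1.52 and CD14 at -0.42 with an interval that includes equality. CD68 carried most of the sum of the 4 markers, 82.9 CPM against 31.4 CPM, while CD3E was at 0 in both libraries. Of 3 alveolar type 2 markers 0 were measured. The part of these markers in the result was not tested. Of 13 mitochondrial messages, 0 were called.

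**Figure D2:**
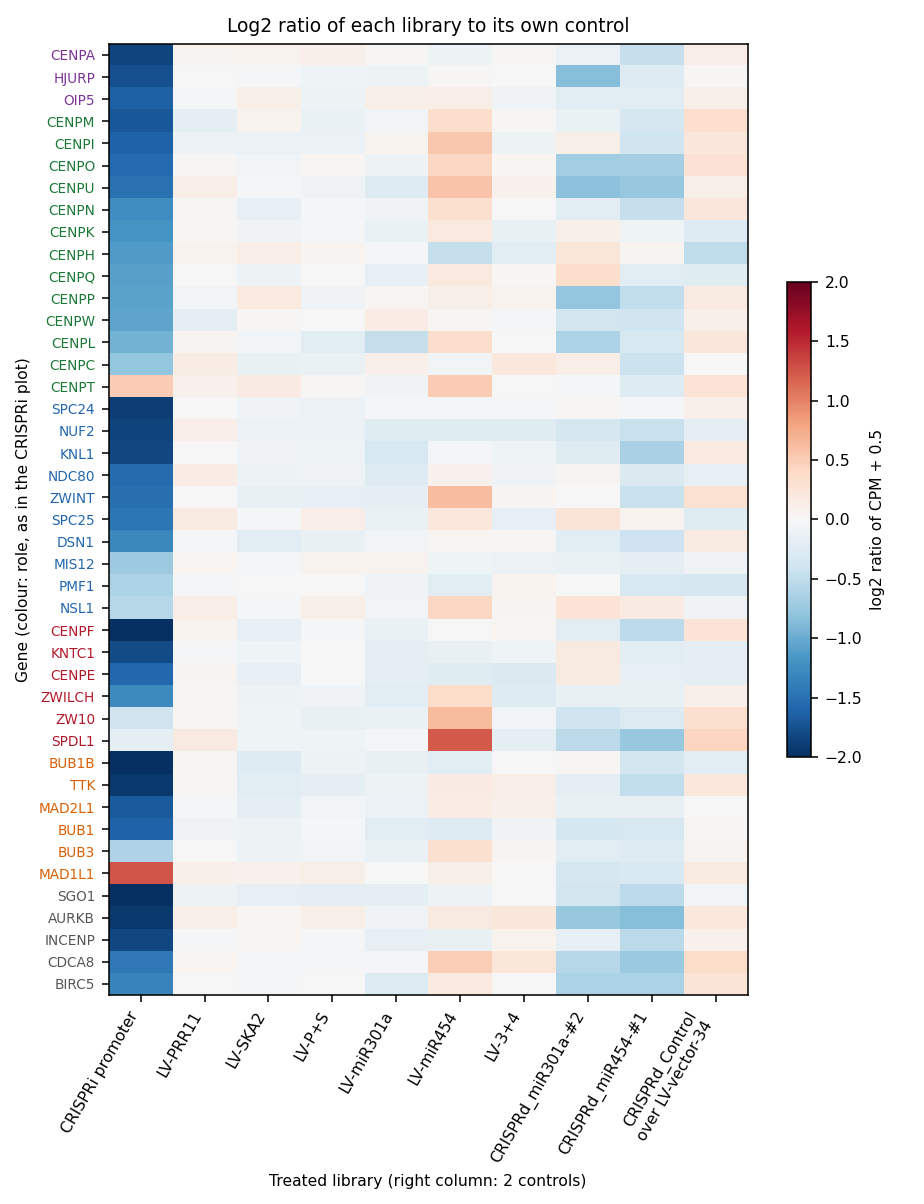
Log2 ratio (CPM plus 0.5) of each of the 43 genes, in rows grouped by role, for each treated library over its own control and, in the right column, for CRISPRd_Control over LV-vector-34. Blue is lower and red is higher in the first-named library; the CRISPRi column is mostly dark blue, with CENPT and MAD1L1 red, the 2 CRISPRd columns are mostly pale blue, and SPDL1 is the reddest cell of LV-miR454.

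In the 3 lentiviral libraries labelled for PRR11, SKA2 or both, the 43 genes lay close to the vector, and so did PRR11 and SKA2 themselves. By the 2-fold rule 0 were called in LV-PRR11 (background 0.119% lower and 0.179% higher), 0 in the library labelled LV-SKA2 (0.111% and 0.141%) and 0 in the library labelled LV-P+S (0.127% and 0.134%). Median log2 ratios were 0.02, -0.07 and -0.05. In LV-PRR11, 16 of 43 genes lay below the vector, as did 50.2% of all genes. Of the 43, 0 had an interval wholly below equality and 4 had one wholly above, where 6.49% and 6.39% of all genes had. In the library labelled LV-SKA2, 32 lay below, as did 50.6% of all genes. By interval 9 were lower and 0 higher, where 10.6% and 10.3% of all genes were. In the library labelled LV-P+S, 34 lay below, as did 51.1% of all genes. By interval 5 were lower and 1 higher, where 6.18% and 5.98% of all genes were. The 3 comparisons share LV-vector-PS.

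Within the small differences, the checkpoint genes stood lowest in the library labelled LV-SKA2, with a median of -0.15 and 4 of 6 intervals below equality. BUB1B had 59.0 CPM in the library labelled LV-P+S, 52.6 in the library labelled LV-SKA2 and 64.5 in LV-PRR11, against 63.1 in LV-vector-PS. TTK had 31.6 CPM in the library labelled LV-P+S, 31.2 in the library labelled LV-SKA2 and 36.9 in LV-PRR11, against 36.1 in the vector. In both genes the 2 libraries with the SKA2 label lay below the 2 without it. The same order held for ZWINT, with 67.3 and 68.0 CPM in the libraries labelled LV-P+S and LV-SKA2, 76.5 in LV-PRR11 and 75.7 in the vector. SPDL1 had 63.9, 64.1 and 77.0 CPM in the libraries labelled LV-P+S, LV-SKA2 and LV-PRR11, against 68.1 in the vector. CENPF had 206, 190 and 222 CPM in the same order of libraries, against 212 in the vector. BUB1B, TTK, ZWINT, SPDL1 and CENPF are the members that the fit described next called for the SKA2 label. Their common order therefore follows largely from that choice. Of the checkpoint genes not called, BUB3 and MAD2L1 kept this order, and BUB1 and MAD1L1 did not.

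The 4 libraries form a layout in which each label occurs in 2 libraries, and edgeR's quasi-likelihood test was fitted to both labels on 13332 genes with 1 residual degree of freedom. For the SKA2 label, 5 of 43 genes were lower at an adjusted p under 0.05, where 2.33% of all genes were, and 0 were higher, where 3.58% were. BUB1B had a log2 coefficient of -0.19 (edgeR adjusted p = 0.0111), SPDL1 -0.18 (0.0152), ZWINT -0.17 (0.0212), CENPF -0.13 (0.0236) and TTK -0.21 (0.0263). At an unadjusted p under 0.05 there were 7 of the 43 genes, where 18.9% of all genes were, and DESeq2 called 0 while giving an adjusted p to only 1 of them. For the PRR11 label edgeR called 0 of the 43 genes, where 0.848% of all genes were lower and 0.308% higher. For that label 5 of the 43 had an unadjusted p under 0.05, where 10.3% of all genes had, and DESeq2 also called 0. These p-values weigh a label against how far 4 single libraries depart from additivity, a departure that may be technical, and SKA2 counts go against the label. Cycling markers lay slightly below the vector as well, with medians of -0.09 in the library labelled LV-SKA2 and -0.08 in the library labelled LV-P+S, and their part was not tested.

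**Figure D3:**
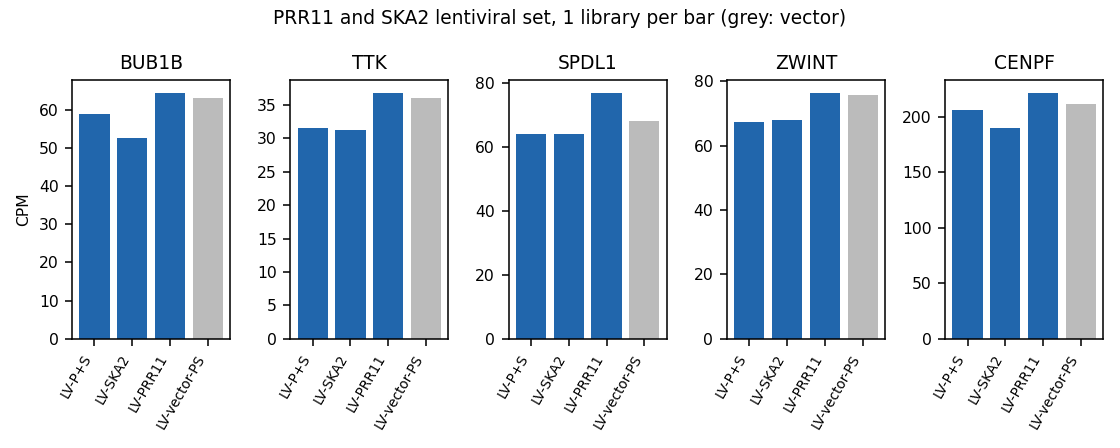
CPM of the 5 genes called for the SKA2 label, 1 library per bar, with LV-P+S, LV-SKA2 and LV-PRR11 in blue and LV-vector-PS in grey; axes start at 0. In each panel the 2 left bars lie below the 2 right bars, as for BUB1B at 59.0 and 52.6 CPM, against 64.5 and 63.1 CPM.

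In the lentiviral microRNA set the libraries differed in direction. The library labelled LV-miR301a had 0 genes called (background 0.372% lower and 0.359% higher), yet 36 of 43 lay below LV-vector-34, with a median of -0.11. For 16 of them the interval lay wholly below equality, where 13.1% of all genes had one. CENPL was the lowest, at -0.48, with 4.83 CPM in this library and 6.91 in the vector. All 10 cycling markers lay below the vector here too, 5 of them by interval (median -0.06), and the fibroblast marker COL1A1 was called higher (1.34, or 256% of the vector); their part was not tested. The library labelled LV-3+4 also had 0 called (0.36% and 0.285%), and its median was 0.01.

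LV-miR454 had 1 gene called higher and 0 lower, where 2.97% of all genes were higher and 3.42% lower. That gene was SPDL1, the dynein adaptor, with 125 CPM in LV-miR454, against 53.2 CPM in LV-vector-34 (235%, 218 to 253%). The library labelled LV-miR301a had 52.1 CPM and that labelled LV-3+4 had 46.9 CPM, so SPDL1 was high in LV-miR454 alone, and this was its highest level in the series. Others lay above the vector without reaching the limit, among them ZW10 (0.63), ZWINT (0.62), CENPU (0.58), CENPI (0.53) and CENPT (0.52). By interval 19 of the 43 genes were higher and 8 lower, where 28.8% and 28.5% of all genes were. The constitutive network had a median of 0.32, with CENPH alone below by interval (-0.48, 23.5 CPM against 33.0 CPM), while the KMN network had a median of 0.01. COL1A1 was called higher in LV-miR454 as well (1.57), and cycling markers had a median of 0.13.

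Fitted over the 4 libraries of this set, edgeR called 0 of the 43 genes for the miR301a label and 0 for the miR454 label, at 14651 genes tested. Over all genes it called 0.0% in either direction for the miR301a label, and for the miR454 label 0.00683% lower and 0.0% higher. At an unadjusted p under 0.05 there were 2 of the 43 for miR301a, where 3.94% of all genes were, and 3 for miR454, where 2.44% were, and DESeq2 called 0 for either. SPDL1 had a coefficient of 0.55 for the miR454 label (edgeR adjusted p = 0.94), where the library labelled LV-3+4 stood at 46.9 CPM. The fit took the labels as given, although MIR454 had 28 counts under the label LV-miR301a and 0 under the label LV-3+4. It therefore cannot decide whether miR-454 moved these genes.

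**Figure D4:**
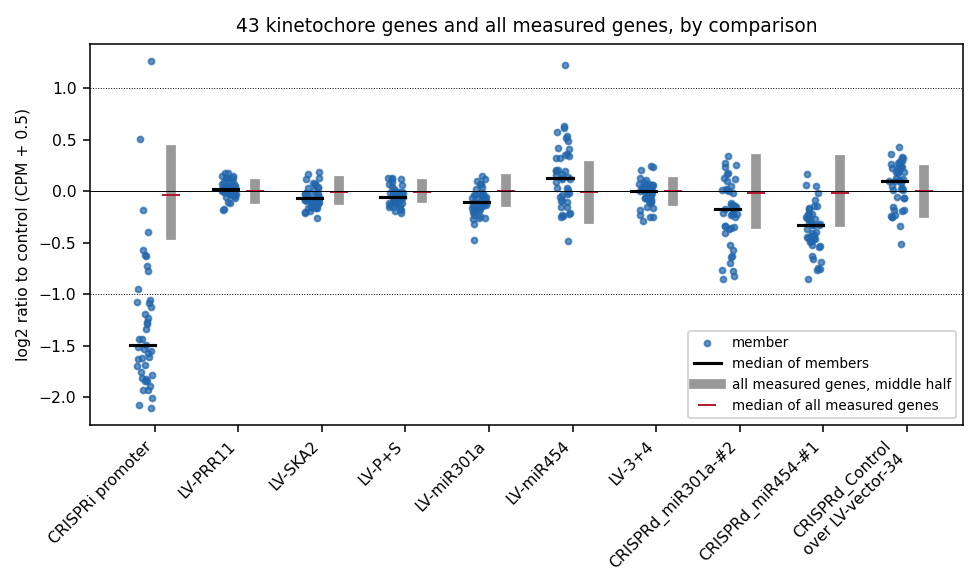
Log2 ratio (CPM plus 0.5) of each of the 43 genes by comparison (points), their median (black line), and beside them the median (red) and quartile range (grey bar) of all measured genes; dotted lines mark the 2-fold limit. The CRISPRi medians lie at -1.49 for the 43 genes and -0.04 for all genes, and the CRISPRd_miR454-#1 medians at -0.33 and -0.01.

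Knockout of the microRNA precursors was accompanied by smaller differences, most of them below the control. By the 2-fold rule 0 of the 43 genes were called in CRISPRd_miR301a-#2 (background 4.15% lower and 6.72% higher) and 0 in CRISPRd_miR454-#1 (3.1% and 6.61%). In sum the genes stood at 82.6% and 75.9% of CRISPRd_Control. In CRISPRd_miR301a-#2, 29 genes lay below the control (median -0.17), 24 of them by interval, that is with the counting interval wholly below equality, and 6 above by interval, where 32.2% and 30.4% of all genes were. In CRISPRd_miR454-#1, 40 lay below (median -0.33), 32 of them by interval and 0 above, where 31.6% of all genes were below by interval. Both medians over all genes were -0.01. The 2 comparisons share CRISPRd_Control, so a shift of that library moves both.

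The passenger complex genes and SGO1 had the lowest medians of the 6 roles in both knockouts, -0.57 in CRISPRd_miR301a-#2 and -0.63 in CRISPRd_miR454-#1, with all 5 below the control by interval in each. AURKB had 66.4 CPM in CRISPRd_miR301a-#2 and 62.2 in CRISPRd_miR454-#1, against 113 in CRISPRd_Control and 97.4 in LV-vector-34. BIRC5 had 96.9 and 96.7 CPM in these knockouts, against 150 and 125 in these controls. CDCA8 had 34.5 and 30.5 CPM, against 51.6 and 40.0. SGO1 had 19.5 and 17.3 CPM, against 25.1 and 26.2. INCENP stood at 88.8% and 68.5% of CRISPRd_Control. In all 5 genes both knockouts lay below both controls, but INCENP in CRISPRd_miR301a-#2 stood at 94.0% of LV-vector-34 with an interval (88.0 to 100.3%) that includes equality. The other controls of the series, scaled separately, were mixed. In LV-vector-PS, AURKB (63.5 CPM), CDCA8 (33.0 CPM) and INCENP (92.7 CPM) lay between the 2 knockouts, and BIRC5 and SGO1 lay above both. In the CRISPRi mock library all 5 lay above both knockouts. Against LV-vector-34 the median of the 5 was -0.37 in CRISPRd_miR301a-#2 and -0.46 in CRISPRd_miR454-#1.

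**Figure D5:**
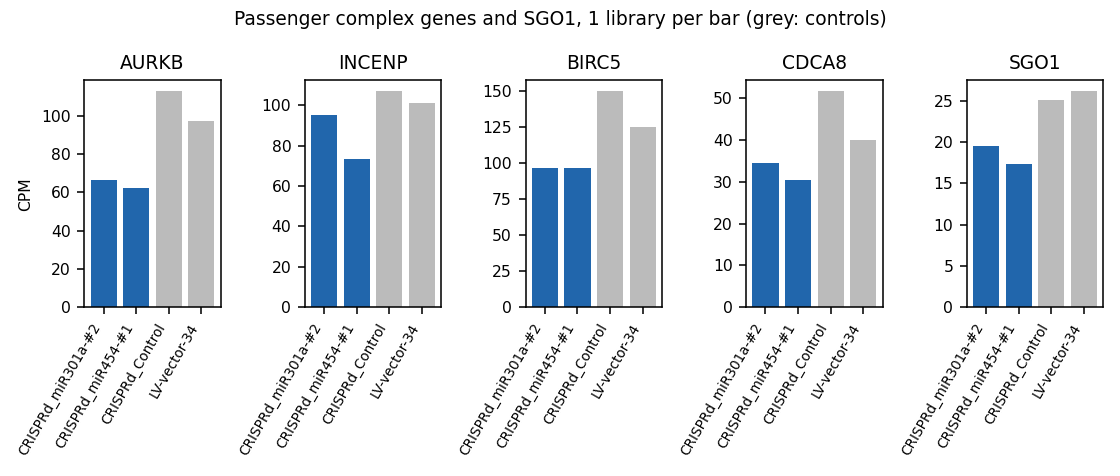
CPM of the 4 passenger complex genes and SGO1, 1 library per bar, with CRISPRd_miR301a-#2 and CRISPRd_miR454-#1 in blue and the controls CRISPRd_Control and LV-vector-34 in grey; axes start at 0. In each panel both blue bars are lower than both grey bars, as for AURKB at 66.4 and 62.2 CPM, against 113 and 97.4 CPM.

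Among the other roles, single genes stood out. HJURP was the lowest gene of CRISPRd_miR301a-#2, with 123 CPM, against 224 CPM in CRISPRd_Control (55.2%, 52.4 to 58.0%), while CRISPRd_miR454-#1 had 187 CPM. Taken directly, CRISPRd_miR301a-#2 had 65.9% of the HJURP level of CRISPRd_miR454-#1 (62.5 to 69.5%). HJURP was the 1 gene of the 43 lower by interval in that direct comparison, where 24.6% of all genes were, and 22 were higher, where 24.0% of all genes were. The median of the 43 was 0.18, beside 0.0027 over all genes. CENPU stood at 55.5% of the control in CRISPRd_miR301a-#2 and at 58.0% in CRISPRd_miR454-#1, and CENPO at 61.5% and 61.9%. Their subcomplex partner CENPP stood at 56.1% and 69.4%, whereas CENPQ stood at 129% (101 to 164%) and 84.4% (64.3 to 111%). KNL1 stood at 83.9% in CRISPRd_miR301a-#2 and 63.0% in CRISPRd_miR454-#1. The KMN network as a group had medians of 0.01 and -0.30.

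These values lean on the control chosen. Against LV-vector-34, which shares the table, 30 genes lay below it in CRISPRd_miR301a-#2 (median -0.11), as did 52.0% of all genes (median -0.02). By interval only 17 of the 43 were lower there, where 24 were against CRISPRd_Control, and 4 were higher. Of all genes, 30% were lower and 28.1% higher by interval. In CRISPRd_miR454-#1 there were 38 below it (median -0.30), as were 52.3% of all genes (median -0.02). By interval 31 of the 43 were lower and 0 higher, where 30.7% and 28.5% of all genes were. CRISPRd_Control itself lay above LV-vector-34 for 30 of the 43 genes, with a median of 0.10, a lowest value of -0.51 (CENPH) and a highest of 0.43 (SPDL1). By the 2-fold rule 0 members were called between these controls, where 2.62% of all genes were lower and 1.73% higher. SPDL1 stood at 58.6% of CRISPRd_Control in CRISPRd_miR454-#1 and at 79.2% of LV-vector-34. In CRISPRd_miR301a-#2 it stood at 69.5% of CRISPRd_Control and at 94.0% of LV-vector-34, with an interval (85.9 to 103%) that includes equality.

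Beside these genes, the cycling markers had medians of -0.26 in CRISPRd_miR301a-#2 and -0.43 in CRISPRd_miR454-#1, with 0 of 10 called. By interval 8 of the 10 were lower and 2 higher in each knockout. Of all genes, 32.2% were lower by interval in CRISPRd_miR301a-#2 and 31.6% in CRISPRd_miR454-#1, and 30.4% were higher in each. Of the 21 further kinetochore genes, 1 was called lower in CRISPRd_miR301a-#2, CENPV at -1.42, and 0 in CRISPRd_miR454-#1. The anaphase-promoting complex had medians of -0.34 in both. All measured immune markers were called higher in the knockouts, 3 in CRISPRd_miR301a-#2 and 2 in CRISPRd_miR454-#1, summing to 129 and 160 CPM, against 49.3 CPM in the control. CD68 was at 1.36 and 1.72 and CD14 at 1.05 and 1.34 in the order miR-301a, miR-454, and PTPRC had 75 counts in CRISPRd_miR301a-#2 and 1 in the control. The 6 epithelial markers summed to 142% and 159% of the control, with KRT18 called higher in CRISPRd_miR301a-#2 (213% of the control) and AKR1B10 in CRISPRd_miR454-#1 (246% of the control). The lowest log2 ratio of all genes belonged in both knockouts to RPS4Y1, a ribosomal protein gene of the Y chromosome (-7.37 and -7.51), named after its values were seen. PRR11 stood at 72.4% of the control in CRISPRd_miR301a-#2 and 68.5% in CRISPRd_miR454-#1, and SKA2, the host gene of both microRNAs, at 99.1% and 70.0%. The part of these genes in the kinetochore values was not tested.

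The CRISPRi and CRISPRd_miR454-#1 comparisons have separate controls, and their log2 ratios over the 43 genes had a Pearson correlation of 0.19 and a Spearman correlation of 0.27, given as a description of genes within single libraries. BUB1B and SPC24 show the spread, at -2.08 and -1.89 in the CRISPRi library, while CRISPRd_miR454-#1 had 46.8 CPM of BUB1B, against 60.6 in CRISPRd_Control, and 24.1 CPM of SPC24, against 24.4.

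Some members share bases with other genes in GENCODE release 29. In 3 the overlap is exonic and on the same strand, CENPA with SLC35F6, PMF1 with PMF1-BGLAP and BUB1B with BUB1B-PAK6, and in 14 it is with genes on the opposite strand. BUB1B-PAK6 had 0 to 7 counts per library, too few to move BUB1B. PMF1-BGLAP had 21 counts in the CRISPRi library and 76 in the mock library. SLC35F6 had 2170 counts in the CRISPRi library and 1960 in the mock library, unlike CENPA.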

How the data were processed

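The values the authors deposited are expected counts in 3 tables, gene-level estimates with no normalisation. Per the submitters' processing notes, RSEM 1.3.3, Bowtie2 2.3.5.1 and GRCh38.p13 were used. The annotation release and strand setting were not given in the sources used here. Values were rounded before use. Nameless entries of the CRISPRi table (181, with 0.355% of mock and 0.431% of CRISPRi counts) were left out, and 4839 numbered copies of symbols among the microRNA libraries were summed per symbol. Unused columns numbered 0.

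Library sizes were scaled by TMM within a table (edgeR 4.0.16, R 4.3.3), so ratios were formed within a table. A gene was measured with at least 20 counts over a pair and 1 CPM in either library. The 2-fold rule used log2(CPM + 0.5), which understates changes of low genes, and an exact Clopper-Pearson 95% interval; percentages are plain CPM ratios. Intervals and floors of 3 counts cover counting error only. Single libraries were compared without p-values. Additive fits used the quasi-likelihood test of edgeR, adjusted by Benjamini-Hochberg, on genes that reached 1 CPM in 2 or more libraries; DESeq2 1.42.0 was an alternative. The size rule and the fits were tested on simulated data.

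The members (by name, with no measured value in the rule), 10 further gene lists and tests were chosen with earlier results of these data known. Any member could be named, and of each other list up to 4 called genes with the largest log2 ratio per comparison. Promoter sequences came from RefSeq on GRCh38.p14, and gene overlaps from GENCODE release 29. Python 3.11.15, numpy 2.4.6, pandas 2.3.3, scipy 1.17.1 and matplotlib 3.10.9 were used. Other scalings, pseudocounts, filters and fold limits were tried.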

Additional observations from a re-analysis of the deposited data

How the results depend on the processing

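No paired analysis was possible because each group has 1 library, and for the same reason no library could be left out. In the CRISPRi library, 30 to 38 of the 43 genes were called lower over all settings tried, beside 33 as reported, and the median log2 ratio lay between -1.49 and -1.35. With a pseudocount of 2 CPM, CENPP (-0.87), CENPQ (-0.87) and CENPW (-0.93) no longer reached the limit, because a larger pseudocount shrinks ratios of low genes. Over 210 values of single members under other settings, 207 kept their direction and call. Among these settings, the absence of a filter and the 1.5-fold limit only loosen the rule and could not remove a call. Under a limit of 1.5-fold, 3 members were higher in LV-miR454 in place of 1, where 8.15% of all genes were. At that limit 7 were lower in CRISPRd_miR301a-#2 in place of 0, where 10.9% of all genes were, and 7 in CRISPRd_miR454-#1 in place of 0, where 9.2% were. For the SKA2 label DESeq2 called 0 members in place of 5; it gave an adjusted p to 926 of 13332 genes and to 1 of the 43 members. Other scalings, no filter on low counts and a filter at 5 CPM kept every reported count of calls within 1.5 times. With 1 library per group, biological spread is not measured, and at this depth counting error limits the lowest genes most.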
